A study of Homo sapiens with 4 samples.

Results

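The genes described here are those whose Gene Ontology process terms name immunity, inflammation, Toll-like receptors, cytokines or interferon. They were chosen by a rule on the annotation deposited with the array values. Earlier results of these data were known when the rule was set. A gene was taken if it carried 1 gene symbol, had such a term, and had no term for cell death, the cell cycle or DNA replication. Genes whose symbols start with HIST, RPL, RPS, ZNF or SLC were left out, as were single genes named in the rule. Among the latter were the interferon-inducible BST2, OASL, IFI44L and IFI16, so the counts below do not cover them. The genes described are 66, measured by 70 probe sets, of 2447 genes that carried a symbol of their own.

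RNA was measured in LNCaP cells, a human prostate cancer line that depends on androgen and keeps a luminal epithelial character. The 4 arrays formed 4 groups of 1 array each. Cells were transfected with a control siRNA (siControl) or with an siRNA against POTEF-AS1 (siPOTEF-AS1), an antisense transcript of the POTEF locus, and 48 h later received ethanol vehicle or 10 nM dihydrotestosterone (DHT), the potent natural androgen. All 4 groups had first been moved from medium with 10% serum to phenol red-free medium with 2.5% charcoal-treated serum, which lowers steroids. The comparisons asked what DHT did in each siRNA arm, and what the knockdown did with each hormone treatment. A single cell line and a single siRNA name limit the groups as a model, and the level of POTEF-AS1 itself was not analysed here. Of the 38 marker genes listed for leukocytes, luminal and basal epithelium, stroma and endothelium, 2 were measured by name, the basal keratins KRT5 and KRT15, with mean log2 signals of 6.38 and 5.43. None of the 16 leukocyte and none of the 10 luminal markers was measured by name, so the cell type was not checked against its markers here.

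Innate immune genes are not restricted to leukocytes. Epithelial cells carry interferon receptors, respond to interferon with antiviral proteins such as the IFITM family, display stress ligands for natural killer cells, and make lipid mediators of inflammation from arachidonic acid. The androgen receptor is a ligand-activated transcription factor that binds paired copies of a short element in DNA and can raise or lower its target genes. Many genes carry an immune annotation while also serving a general function in the cell, as actin regulators, translation factors and RNA polymerase subunits do.

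The annotation was broad. Of the 66 genes, 23 had the term innate immune response, 19 immune response, 12 cytokine-mediated signaling pathway and 11 inflammatory response. For 13 genes innate immune response was the only term that met the rule. A gene had a median of 7.5 different process terms, so membership says little about its main function.

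RefSeq promoters were at hand for 49 of the 66 genes, in 65 windows, and 4 are shown because they frame the results that follow. Each is the 250 bases before the transcription start on GRCh38.p14, read 5′ to 3′ on the gene's strand. LTA4H and MR1 were lower with DHT, and IFITM3 and IL18BP were the 2 genes with the core of the interferon-stimulated response element. Capitals mark that core (GAAA, any 2 bases, GAAA) or the half-site of the androgen response element (AGAACA), each searched on both strands.
LTA4H, chr12:96035588-96035837, minus strand: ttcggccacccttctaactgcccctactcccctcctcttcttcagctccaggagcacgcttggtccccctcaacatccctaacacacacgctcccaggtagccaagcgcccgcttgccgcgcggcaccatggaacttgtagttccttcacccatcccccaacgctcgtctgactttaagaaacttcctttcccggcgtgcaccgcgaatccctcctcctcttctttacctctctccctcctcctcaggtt
MR1, chr1:181033733-181033982, plus strand: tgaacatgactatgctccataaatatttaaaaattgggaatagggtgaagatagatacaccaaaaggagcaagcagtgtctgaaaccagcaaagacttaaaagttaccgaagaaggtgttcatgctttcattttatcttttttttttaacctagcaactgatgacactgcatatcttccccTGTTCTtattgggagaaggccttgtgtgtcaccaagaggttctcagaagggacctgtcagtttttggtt
IFITM3, chr11:320861-321110, minus strand: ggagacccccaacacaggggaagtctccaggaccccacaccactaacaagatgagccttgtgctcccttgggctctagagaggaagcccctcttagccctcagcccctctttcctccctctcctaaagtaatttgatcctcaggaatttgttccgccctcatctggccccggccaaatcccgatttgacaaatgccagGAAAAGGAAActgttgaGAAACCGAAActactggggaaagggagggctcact
IL18BP, chr11:71999367-71999616, plus strand: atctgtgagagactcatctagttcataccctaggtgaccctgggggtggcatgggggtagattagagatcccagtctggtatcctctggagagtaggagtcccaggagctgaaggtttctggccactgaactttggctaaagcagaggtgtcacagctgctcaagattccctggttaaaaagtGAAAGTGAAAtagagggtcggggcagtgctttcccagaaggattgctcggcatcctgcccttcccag
The IFITM3 window held the interferon core at 2 places, 52 to 43 and 35 to 26 bases before the start, and the IL18BP window at 1. For genes with several windows the one with most matches is shown, 1 of 4 for IL18BP and 1 of 2 for MR1. Over all 35116 promoter windows 3.02% held this core, and 3.08% of the 65 member windows did. The half-site was in 12.4% of all windows and in 16.9% of member windows, those of MR1, MBP, SH2B2 and 8 other genes. The full palindrome (AGAACA, any 3 bases, TGTTCT), which contains the half-site, was in 1 window of all and in none of the members. These are matches of letters and were not tested as binding sites. No match in LTA4H says only that these letters are not in this window.

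Signals are log2 values from robust multi-array averaging, RMA, and a gene was taken into the tests if its mean over the 4 arrays reached 6.82, the median over all distinct annotated probe sets. This value is a brightness limit and not a detection call. Of the 66 genes, 28 passed and 38 did not, and 12 reached 8.75, the 75th percentile. Over all distinct annotated probe sets 13094 of 26187 passed, as a limit at the median sets, so these shares do not mark the group as dim. Signals ran from a mean of 3.12 for DEFB127, a beta-defensin, to 12.81 for IFITM3, a membrane protein that restricts virus entry. Just above the limit were SCUBE1, FGF17 and CTSC, at 6.88 to 7.04, and just below it LST1, IL17RB and GAB1, at 6.82 to 6.75.

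**Figure D1:**
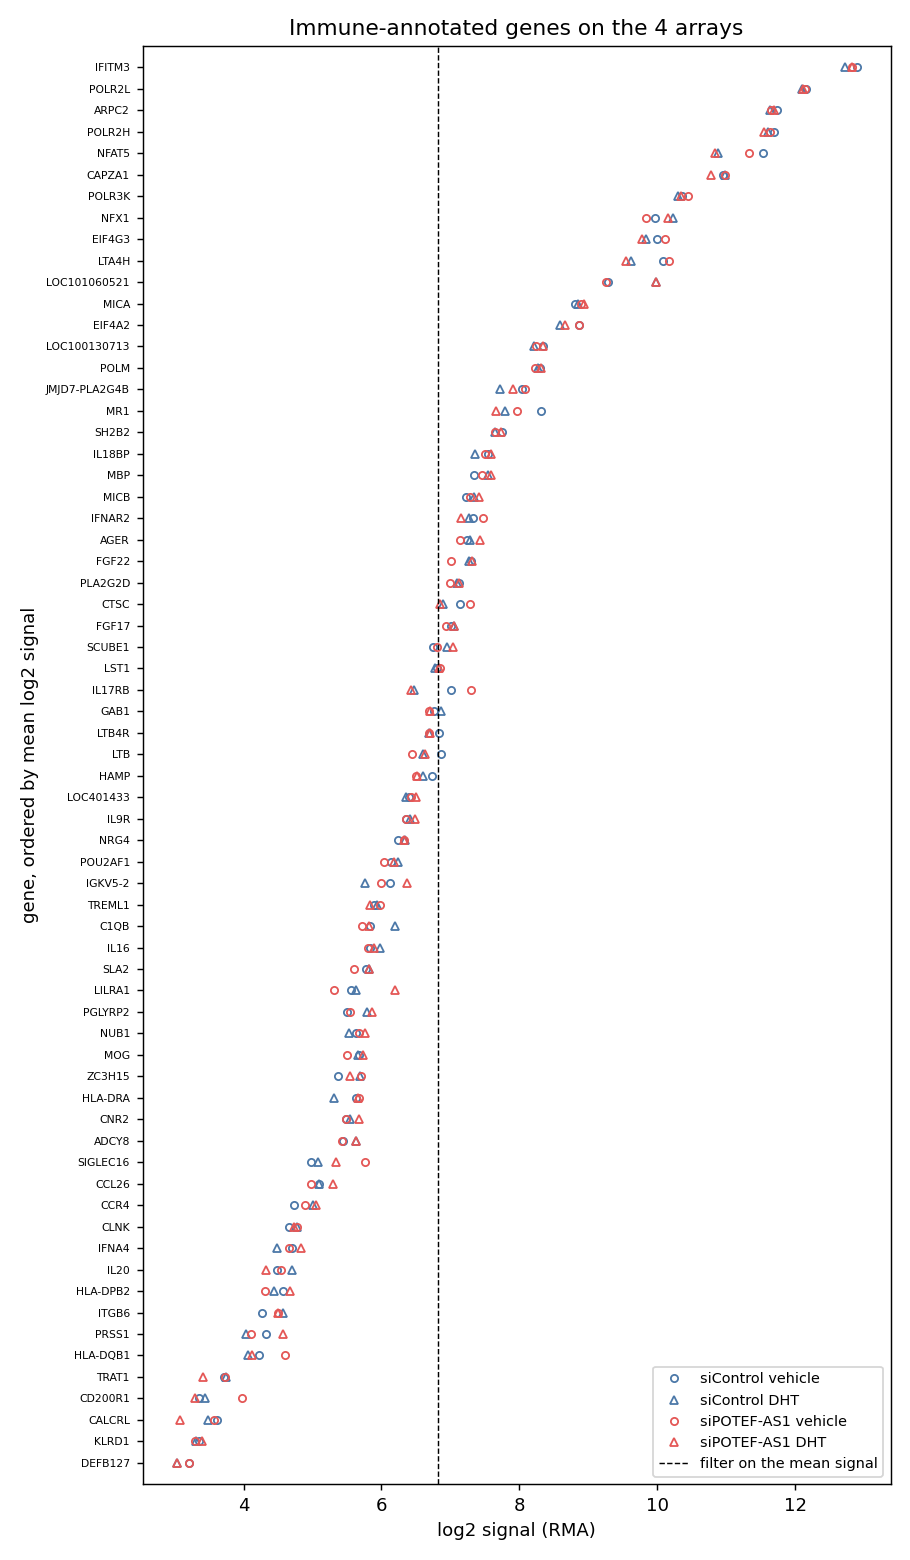
Log2 signals of all 66 genes, ordered by their mean, with 1 point for each of the 4 arrays (circles vehicle, triangles DHT, blue siControl, red siPOTEF-AS1). The dashed line is the limit of 6.82, and IFITM3 at the top reaches 12.81 while the dimmest gene, DEFB127, lies near 3.12.

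The genes that passed are given here by role, as a description, since levels of different probe sets do not compare their transcripts. All 4 RNA polymerase subunit genes, both actin regulators and both translation factors passed. None of the 11 leukocyte receptor, adaptor and B cell genes did. These include KLRD1, the natural killer receptor subunit CD94, and TRAT1, an adaptor of the T cell receptor complex, with mean signals from 3.34 to 6.82. None of the 4 antimicrobial and complement genes passed either, with means up to 6.59 for HAMP, which encodes the iron hormone hepcidin. The class II antigen-presenting genes HLA-DRA and HLA-DQB1 were dim as well, at 5.57 and 4.25. Of the 5 genes of cytokines, chemokines and a cytokine inhibitor, only IL18BP passed.

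Few of the bright genes differed by 1.5-fold with DHT, as was so for all probe sets of that brightness. In siControl cells 1 of the 28 genes was at least 1.5-fold higher with DHT and 1 was lower, against 3.89% higher and 2.99% lower among all 13094 probe sets of the same brightness. In siPOTEF-AS1 cells the counts were again 1 and 1, against 3.79% and 5.12%. No member reached 2-fold in either arm, where 2.16% and 2.44% of all probe sets did in either direction. These shares of the members are near the background and do not set the group apart. The median DHT difference of the 28 genes was -0.06 on the log2 scale with siControl and 0.04 with siPOTEF-AS1, and that of all probe sets was -0.02 and -0.04. With 1 array per group, no single pair of arrays was tested. In RNA from a whole culture, fewer cells with a transcript and less of it per cell cannot be told apart.

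The DHT effect common to both arms was tested with limma, in an additive fit of siRNA and hormone to all 13094 probe sets. At a Benjamini-Hochberg adjusted p under 0.05, 3 of the 28 genes fell with DHT and 2 rose. Over all probe sets 13.1% fell and 9.46% rose, so these counts too are near the background. The genes were NFAT5, LTA4H and MR1, which fell, and LOC101060521 and NFX1, which rose. Without the trend of spread on signal 3 fell and 1 rose, against 8.97% and 7.19%, and NFX1 was the gene lost. The model left 1 residual degree of freedom per probe set and leaned on the spread of all others. It assumes an equal effect in both arms, and separate cultures are not given in the labels, so its p-values rest on the spread between 4 arrays. In simulated arrays of this design more of the calls were false than the threshold allows, so the adjusted p-values here may be too small. Far fewer probe sets were changed there than were called here, so the size of that excess does not carry over.

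NFAT5 encodes the transcription factor of the response to high salt, which also drives cytokine genes. Its log2 signal went from 11.54 in vehicle to 10.87 in DHT with siControl, and from 11.32 to 10.84 with siPOTEF-AS1. Both DHT arrays lay below both vehicle arrays. The difference was -0.66 and -0.48, a mean of -0.57 ± 0.09 (the ± value is how far each of the 2 arms lay from their mean), or 1.49-fold lower, with a limma adjusted p of 5.3e-05.

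LTA4H encodes leukotriene A4 hydrolase, which makes leukotriene B4, a lipid that attracts neutrophils. Its signal was 10.08 and 9.62 in siControl vehicle and DHT cells, and 10.17 and 9.55 in siPOTEF-AS1 cells. The DHT arrays were again the lower ones in both arms. The mean difference was -0.54 ± 0.08, or 1.46-fold lower, with a limma adjusted p of 0.000295. NFAT5 and LTA4H stayed past the threshold under all 9 alternatives tried.

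The receptor of leukotriene B4 and some of the enzymes that release its precursor were measured by name beside LTA4H. The receptor gene was below the brightness limit and was not in the main test. LTB4R, the receptor, was dim, with signals of 6.84, 6.69, 6.68 and 6.70 given here and hereafter for siControl (vehicle, then DHT) followed by siPOTEF-AS1 (vehicle, then DHT). JMJD7-PLA2G4B, a read-through transcript with a cytosolic phospholipase A2, had 8.04, 7.72, 8.08 and 7.91 in the same order. Its DHT differences of -0.32 and -0.17 did not pass, with a limma adjusted p of 0.161. PLA2G2D, a secreted phospholipase A2, differed by -0.03 and 0.14. PTGES2, a prostaglandin E synthase gene of the same pathway list but not a member, differed by -0.13 and -0.15, with a limma adjusted p of 0.377. Of the 22 listed genes of prostaglandins and leukotrienes, 3 were measured by name, and LTA4H alone of them passed for DHT. With 13.1% of all probe sets called lower and 9.46% higher, so few genes say nothing about the list.

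MR1 encodes the class I-like molecule that presents vitamin B metabolites to mucosal-associated invariant T cells. Its signal was 8.31 in vehicle and 7.79 in DHT with siControl, and 7.96 and 7.65 with siPOTEF-AS1. The siControl vehicle array stood above the other 3. The mean DHT difference was -0.41 ± 0.11, or 1.33-fold lower, with a limma adjusted p of 0.0214, which ranged from 0.0187 to 0.0630 over the alternatives. With the arrays quantile-normalized again it was 0.0630, with their intensity trend removed 0.0605 and without a filter 0.0599, so the call was lost there.

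The other genes of antigen presentation and of natural killer recognition had smaller DHT differences on the mean of both arms. MICA and MICB encode stress ligands of the NKG2D receptor and are close copies, so that a probe set of one may read the other. MICA had signals of 8.81, 8.85, 8.90 and 8.93 on its brighter probe set. The DHT differences were 0.04 and 0.03. A second MICA probe set was below the limit on all arrays, from 4.16 to 4.41, and was not compared. MICB differed by 0.11 and 0.13, with a limma adjusted p of 0.607. TAP2, a subunit of the peptide transporter that loads class I molecules, is on the same list but is not a member. It differed by -0.28 and -0.17, with an adjusted p of 0.0917. Of 46 listed genes of antigen presentation 6 were measured, 4 of them passed the brightness limit, and MR1 alone was called. Of all probe sets 13.1% were called lower with DHT and 9.46% higher, so 1 of 4 does not set the list apart. CTSC, the protease that activates the granule enzymes of cytotoxic cells, had signals of 7.14, 6.89, 7.29 and 6.85. Both its DHT arrays were the lower ones, by 0.26 and 0.43, and its adjusted p was 0.121.

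LOC101060521 was the member with the largest DHT difference among the 28. The annotation deposited with the array describes it as a predicted transcript like the RPC5 subunit of RNA polymerase III, an enzyme that also acts as a sensor of foreign DNA in the cytosol. Its signal was 9.29 and 9.26 on the vehicle arrays of siControl and siPOTEF-AS1 cells, and 9.98 and 9.98 on the DHT arrays. The 2 arms thus gave the same size of difference within 0.03. The mean was 0.70 ± 0.01, or 1.63-fold higher, with a limma adjusted p of 2.69e-05, and it stayed past the threshold under all alternatives. A predicted copy may share probes with the gene it resembles, so which of them was read is uncertain.

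The other RNA polymerase genes of the group did not pass. POLR3K, a subunit of polymerase III alone, had signals of 10.36, 10.30, 10.45 and 10.34 and differed with DHT by -0.06 and -0.10. POLR2H and POLR2L, subunits common to the nuclear polymerases, differed by -0.08 and -0.08, and by -0.06 and -0.03. All 3 were lower on both DHT arrays than on both vehicle arrays, at sizes up to 0.10. Over all probe sets 35.1% were separated in this direction, so 3 genes do not set the polymerase genes apart.

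NFX1 encodes a zinc finger repressor that binds the X box of class II promoters. Its signal was 9.97 and 10.22 in siControl vehicle and DHT cells, and 9.84 and 10.16 in siPOTEF-AS1 cells. Both DHT arrays lay above both vehicle arrays. The mean difference was 0.29 ± 0.03, or 1.22-fold higher, with a limma adjusted p of 0.0200. This call depended on the settings, with adjusted p from 0.0118 to 0.114, the highest with arrays centred on their medians. The class II gene HLA-DRA was below the brightness limit on all arrays, at 5.63, 5.32, 5.67 and 5.65.

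**Figure D2:**
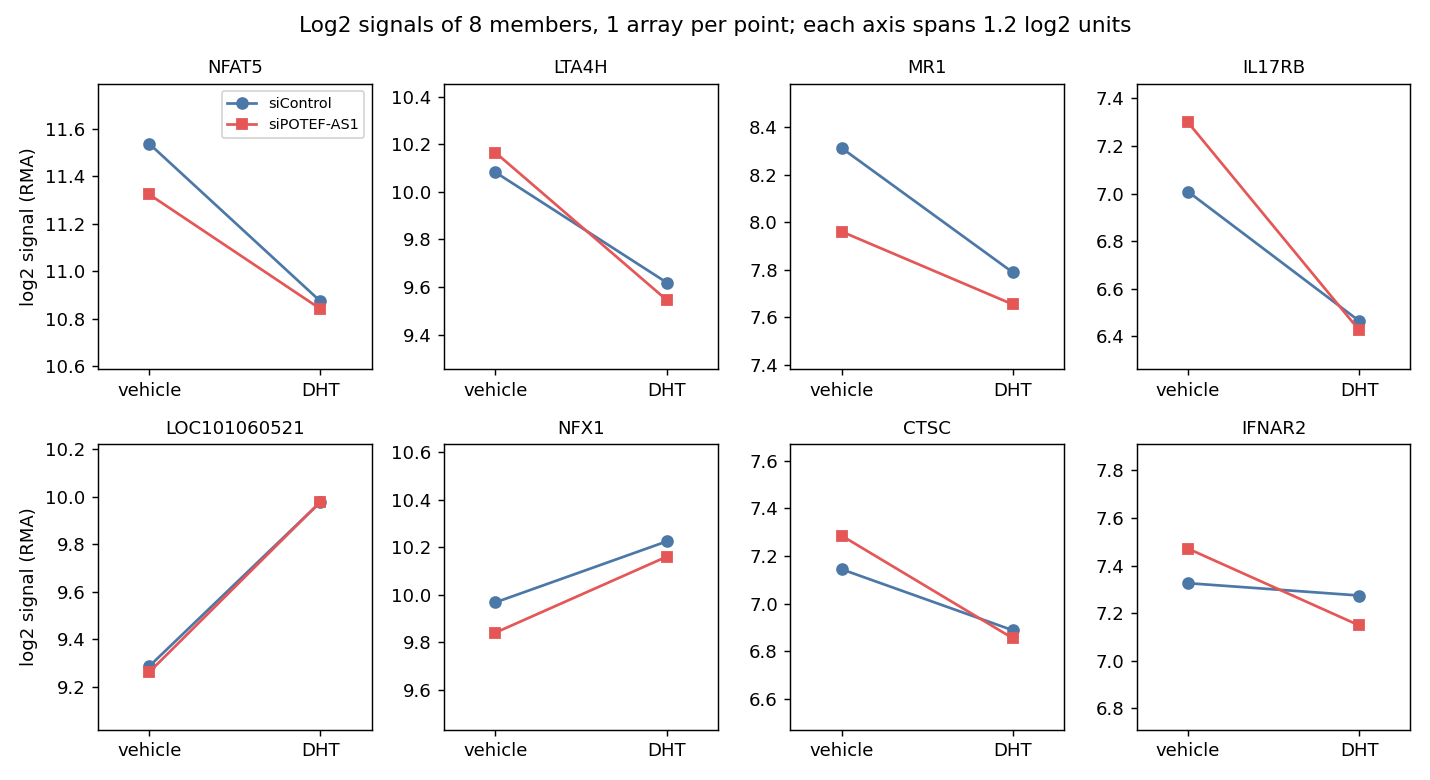
Log2 signals of 8 members, 1 point per array, with vehicle at the left and DHT at the right of each panel (blue circles siControl, red squares siPOTEF-AS1). NFAT5, LTA4H, MR1 and IL17RB, the last not in the main test, are lower with DHT in both arms, and LOC101060521 and NFX1 are higher. CTSC and IFNAR2, which did not pass the test, differ by -0.26 and -0.43 and by -0.05 and -0.32 (siControl, then siPOTEF-AS1).

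Translation factors and actin regulators carry the annotation through cytokine signalling and innate immunity. EIF4G3, a scaffold of the cap-binding complex, had signals of 10.00, 9.84, 10.11 and 9.77 and a limma adjusted p of 0.0532 for a mean DHT difference of -0.25 ± 0.09. It passed under 2 alternatives, quantile normalization and the filter at the 75th percentile, with adjusted p of 0.0481 and 0.0344. EIF4A2, an RNA helicase of the same complex, differed by -0.27 and -0.20, with an adjusted p of 0.107. ARPC2, a subunit of the actin-branching Arp2/3 complex, differed by -0.09 and 0.04, and CAPZA1, of the capping protein of actin filaments, by 0.02 and -0.20.

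The interferon system was measured from ligand to effector by few genes. IFNA4, an interferon alpha gene, was dim on all arrays, at 4.49 to 4.83. IFNAR2, a subunit of the receptor of type I interferons, had signals of 7.33, 7.27, 7.47 and 7.15. Its DHT differences were -0.05 and -0.32, with a limma adjusted p of 0.399. IFITM3 (ENSG00000142089, chromosome 11, 319669 to 321050, minus strand, GRCh37) had signals of 12.89, 12.72, 12.82 and 12.82, a difference of -0.17 in siControl cells and of 0.00 in siPOTEF-AS1 cells, with an adjusted p of 0.394. IFITM1, a neighbouring and similar gene of the same family that is not among the 66 genes, had 13.44, 13.31, 13.48 and 13.45. Reads of either by the other's probes cannot be told apart here. NUB1, an interferon-inducible regulator of NEDD8, was dim, at 5.53 to 5.76. Of 24 listed genes of interferon receptors and signalling and 34 listed effectors, 2 and 2 were measured and none was called. Against 9.46% and 13.1% of all probe sets called, so few genes say nothing about the interferon system.

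IL17RB, a receptor of interleukin 25, had a mean of 6.80, just below the limit, and was left out of the main test. It was fitted only without a filter and with the filter on the highest value. There its limma adjusted p for DHT was 0.014 and 0.0091. The latter filter admits it through its vehicle signal. Its signal was 7.01 in vehicle and 6.46 in DHT with siControl, and 7.30 and 6.43 with siPOTEF-AS1. Both vehicle arrays were above the limit and both DHT arrays below it, where a signal may be background, and no fold is given.

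Other cytokine and receptor genes on the lists were mostly dim. Of 64 listed cytokines 9 were measured and 2 passed the limit, neither of them a member. TNFSF15, a ligand of the tumour necrosis factor family, had 8.64 and 7.51 in siControl vehicle and DHT cells, and 8.68 and 7.77 in siPOTEF-AS1 cells. It fell by 1.13 and by 0.91 on the log2 scale, with a limma adjusted p of 1.13e-05. CSF1, the macrophage growth factor, differed by -0.21 and -0.33, with an adjusted p of 0.243. Members below the limit were IL16, IL20 and LTB, with highest signals of 5.98, 4.70 and 6.87. The chemokine gene CCL26 and the chemokine receptor gene CCR4 reached 5.29 and 5.05, and the interleukin 9 receptor gene IL9R reached 6.48. Of 60 listed cytokine receptors, 4 were measured and only TNFRSF25 passed the limit, with DHT differences of 0.08 and 0.09. None of the 29 listed Toll-like receptor genes and none of the 36 genes of T and B cell receptor signalling was measured by name. The lists of NF-kB, of inflammasomes and of nucleic acid sensors had 1 tested gene each, which was not called. Over all probe sets 9.46% rose and 13.1% fell with DHT, so single genes say nothing about these lists. The complement list had 1 measured gene and that of chemokines 3, all below the limit and not tested. Among the antimicrobial genes 5 of 52 were measured, and LCN2, lipocalin 2, alone passed the limit without being called. PGLYRP2, an enzyme that cuts bacterial peptidoglycan, ran from 5.50 to 5.86 and DEFB127 from 3.03 to 3.21.

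**Figure D3:**
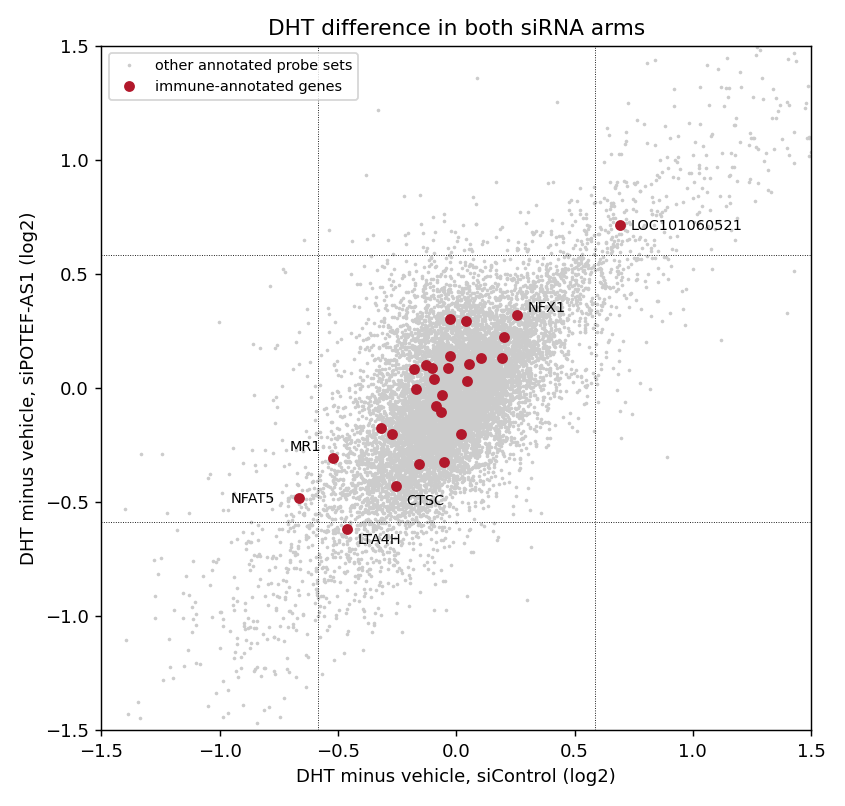
DHT minus vehicle (log2) in siControl cells against the same difference in siPOTEF-AS1 cells for the 28 tested members (red) over the other annotated probe sets of the same brightness (grey), with dotted lines at 1.5-fold. Axes end at 1.5, which leaves out 128 probe sets, and LOC101060521 is the member farthest up while NFAT5 and LTA4H lie lowest.

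The arms could be compared because they share no array. Of the 28 genes, 20 differed in the same direction in both arms, and of all probe sets 71.5% did. Both DHT arrays were above both vehicle arrays for 7 genes and below them for 12, against 25.3% and 35.1% of all probe sets. Across the 28 genes the differences of both arms had a Pearson r of 0.84 and a Spearman rho of 0.78, against an r of 0.80 over all probe sets. Genes on the same arrays are not independent, and these values describe 4 arrays. MBP, the myelin basic protein gene, differed by 0.19 and 0.13 and did not pass the test. SCUBE1, a secreted and membrane-bound glycoprotein of platelets and endothelium, did not pass either. Its signals were 6.74, 6.95, 6.81 and 7.03, and both vehicle arrays lay below the limit, so that it was tested only through its DHT arrays.

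None of the genes reported passed the test for the knockdown. In vehicle 0 of the 28 were 1.5-fold higher and 0 lower with siPOTEF-AS1, against 0.29% and 0.42% of all probe sets. In DHT the counts were 0 and 0, against 0.458% and 0.466%. The median difference was -0.03 in vehicle and 0.04 in DHT, and over all probe sets 0.03 and -0.01. In the limma model 0 of the 28 were called higher and 0 lower, against 0.283% and 0.305% of all probe sets, and without the trend no probe set was called (0% in both directions). At an unadjusted p under 0.05 the count was also 0 of 28, and over all probe sets 965 of 13094.

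MICA was the only one of the 28 with both siPOTEF-AS1 arrays above both siControl arrays, by 0.09 and 0.08, and none had both below. Over all probe sets 11.1% and 8.54% were so separated. MR1 was lower with knockdown by 0.35 in vehicle and by 0.13 in DHT, with a limma adjusted p of 0.723. NFAT5 was lower by 0.21 in vehicle and by 0.03 in DHT, at 0.873. IL18BP, a secreted inhibitor of interleukin 18, differed by -0.04 and 0.22, and IFITM3 by -0.06 and 0.10. CAPZA1 differed by 0.03 and -0.20, and FGF22, a fibroblast growth factor gene, by -0.28 and 0.04. The knockdown differences in vehicle and in DHT had a Pearson r of 0.01 over the 28 genes and a Spearman rho of -0.08. Over all probe sets r was 0.07.

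**Figure D4:**
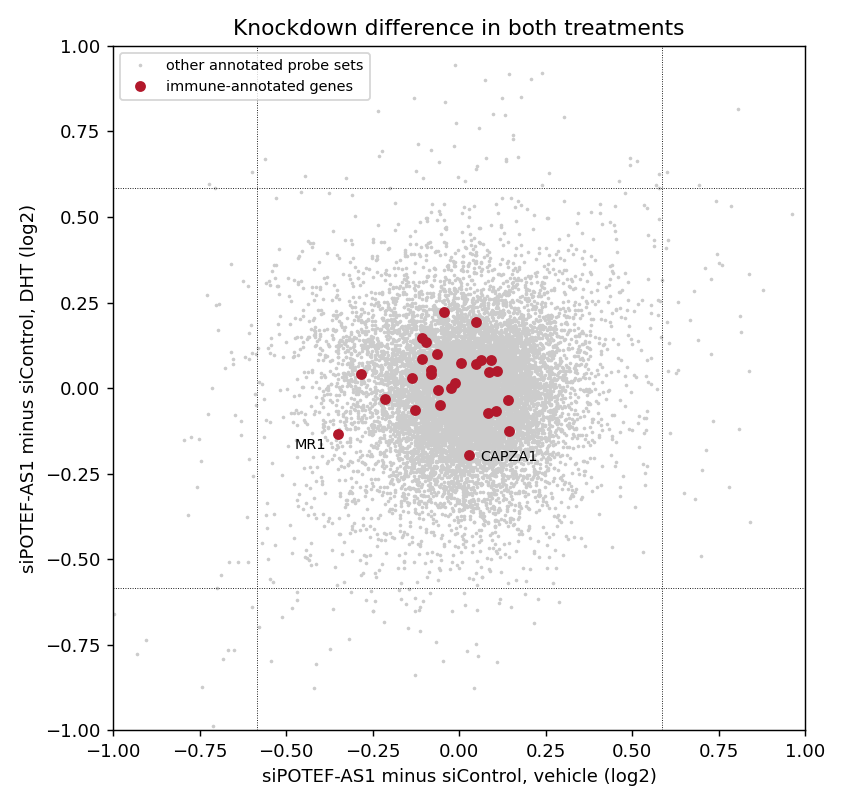
Knockdown difference (siPOTEF-AS1 minus siControl, log2) in vehicle against the same in DHT for the 28 tested members (red) over the other annotated probe sets (grey), with dotted lines at 1.5-fold. MR1 lies farthest to the left, at -0.35 and -0.13, and axes end at 1.0, which leaves out 13 probe sets.

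The DHT responses of the 2 arms were set against each other gene by gene. None of the 28 differed by 1.5-fold or more between the arms, against 1.49% higher and 1.19% lower among all probe sets with siPOTEF-AS1, a count near that background. This difference has no residual degree of freedom and was not tested. The response was higher with siPOTEF-AS1 for 20 genes and lower for 8, with a median of 0.06, where 41.4% of all probe sets were higher. Centring arrays on their medians takes 0.09 off every gene, and the split became 12 and 16, where 26.7% of all probe sets were higher. With arrays quantile-normalized again, or with their intensity trend removed, it was 19 and 9, where 48.4% and 45.9% of all were higher. A count above 0 thus depends on where the arrays are centred. FGF22 had the highest value, 0.33, followed by IL18BP at 0.27 and AGER, the receptor of advanced glycation end products, at 0.25. IFNAR2 had the lowest, at -0.27, then CAPZA1 at -0.23 and CTSC and EIF4G3 at -0.17 each.

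**Figure D5:**
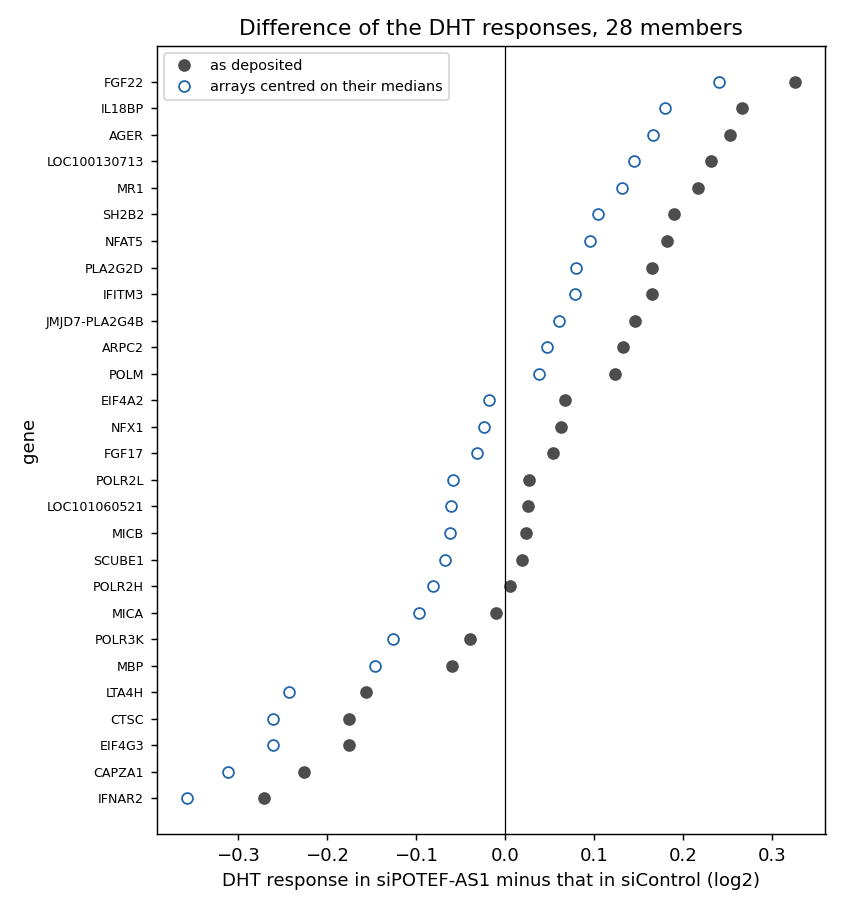
DHT response in siPOTEF-AS1 cells minus that in siControl cells (log2) for the 28 tested members, with the deposited values as filled points and arrays centred on their medians as open points. As deposited 20 genes lie above 0, and centring, which moves every gene by the same -0.09, leaves 12 there, while the share of all probe sets above 0 goes from 41.4% to 26.7%.

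Below the brightness limit some larger differences came with 1 array that stood off from the other 3. LILRA1, a leukocyte immunoglobulin-like receptor gene, was highest in siPOTEF-AS1 DHT cells and had 5.31 to 5.62 on the others. SIGLEC16, which encodes a sialic acid-binding receptor in some people and is a pseudogene in others, had 5.77 in siPOTEF-AS1 vehicle cells and 4.98 to 5.34 on the others. CD200R1, an inhibitory receptor of myeloid cells, had 3.97 on that array and 3.29 to 3.44 on the others. The immunoglobulin segment gene IGKV5-2 ran from 5.76 to 6.36 and the trypsinogen gene PRSS1 from 4.03 to 4.57. Of the 38 dim genes these 5 and IL17RB were the only ones past 1.5-fold in any of the 5 comparisons. The share of all dim probe sets past 1.5-fold was not determined, so this count says nothing about the group. At such signals background cannot be told from expression, so folds are left out.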

How the data were processed

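Expression was profiled on 4 Affymetrix arrays, 1 per group. The deposited values are on the log2 scale, and RMA in Affymetrix Expression Console is named in the submitters' processing notes, without a version. RMA brings arrays to a common distribution, hides changes in total RNA and compresses differences of dim probe sets. A second deposited table held the same log2 values within 1.78e-15. Array medians lay between 6.72 and 6.77 and correlations between arrays from 0.988 to 0.995. No detection calls were used, and precision is limited by there being 4 arrays.

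Of 33297 probe sets, 26722 were annotated and 26187 of these distinct; 2540 carried 1 gene symbol. Of 102 such probe sets with an immune or inflammation term, 27 were left out for a death or cell cycle term and 4 by name; 1 more gene that meets the rule is not reported here. The process terms of 101 probe sets are not analysed here. A gene was represented by its brightest probe set. The limma 3.58.1 model (R 4.3.3, eBayes with trend) covered 13094 probe sets with a mean of at least 6.82, and its code was tested on simulated data. Known changes were recovered there, but more of the calls were false than the adjusted p threshold allows. Differences of 2 arrays were counted at 1.5-fold.

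Named genes were all called members, up to 12 per direction for DHT, 8 for knockdown and 6 for the response difference, by size, and all measured members of 14 lists of 538 genes, of which 38 were measured. The other members, LILRA1, SIGLEC16, CD200R1, IGKV5-2, PRSS1, KLRD1, TRAT1, IFNA4, NUB1, ARPC2, POLR2L, GAB1 and LST1, were named after their values were seen. The list genes TNFSF15, IFITM1, TAP2, PTGES2, CSF1, TNFRSF25 and LCN2 are not members and were not named by this rule. Some other measured list genes that are not members are not named. The members and lists were chosen with earlier results of these data known.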

Additional observations from a re-analysis of the deposited data

Results flagged for a closer look

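For 8 of the 28 tested genes the DHT difference had opposite signs in the 2 siRNA arms, each arm resting on 1 pair of arrays. These differences between arms were not tested, and signs change by chance where differences are small. The response with siPOTEF-AS1 minus that with siControl was 0.33 for FGF22, 0.27 for IL18BP, 0.23 for LOC100130713, 0.19 for SH2B2, 0.16 for PLA2G2D, 0.13 for ARPC2 and 0.12 for POLM, and it was -0.23 for CAPZA1. Of all tested probe sets 71.5% kept their sign in both arms.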

How the results depend on the processing

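No paired analysis was possible because each group has 1 array and the labels give no replicate numbers to use as a block; the additive model already compares vehicle and DHT within each siRNA arm. No array could be left out for the same reason. Of the DHT calls, those of LOC101060521, NFAT5 and LTA4H held under all alternatives. IL17RB was not in the main test and was called lower with DHT in both fits that admit it. The filter on the highest value admits it through its vehicle signal, so that call is not taken as support. The 2 genes called higher with DHT became 1 with arrays centred on their medians, without a filter, without the trend and in a fit over named genes alone, where NFX1 missed the threshold. None of the genes reported was called for the knockdown in any fit. Probe sets called for knockdown over the whole table went from 77 to 0 under 3 alternatives (quantile normalization, intensity trend removed, no trend), to 9 without a filter and to 2 over named genes, and those called for DHT from 2960 to 2115 without the trend. At 2-fold all 4 counts of 1 for DHT became 0. Without a filter the members 1.5-fold apart became 2 higher and 3 lower with DHT in siPOTEF-AS1 cells. They became 2 higher with knockdown in vehicle, 1 higher with knockdown in DHT, and 3 higher and 1 lower for the response difference. The 1 gene lower with DHT in siPOTEF-AS1 cells became 2 with the filter on the highest value, which admits IL17RB through its vehicle signal. It became 0 with the intensity trend removed. Shares of all probe sets past 1.5-fold were not determined under these alternatives, so these counts say nothing about the members. The cause of these changes was not tested beyond the choice itself.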
